A study of Tachycineta bicolor and Sialia sialis and Hirundo rustica with 121 samples.

Results

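Male and female House Wrens (Troglodytes aedon) were compared in the ventromedial telencephalon, a region of the forebrain that holds circuits for social behaviour. The House Wren libraries were found by the species and sex in their labels: 6 males and 6 females, 12 of the 121 birds in the series. Both sexes were adult obligate cavity nesters of the family Troglodytidae, sampled in the Midwestern United States while territories were being set up and nests built, before any eggs were laid. The labels name no agent or genotype for these birds, and their treatment label gives the nesting strategy, which all 12 share. The series holds 10 songbird species that differ in nesting strategy, with 1 library per bird, and the other 9 species served here to show which sex differences the House Wren shares with them. The p-values measure the spread between these birds.

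In birds the male carries a pair of Z chromosomes and the female 1 Z and 1 W. Unlike mammals, which silence most of 1 X in females, birds have no chromosome-wide mechanism that evens out the Z dose, so many Z genes are transcribed more in males. The W carries few genes, most of them with a related copy on the Z, such as CHD1W beside CHD1. Genes on the other chromosomes are present in equal number in both sexes, and differences there are usually sought in steroid signalling, in cell composition or in regulation by sex-linked genes.

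Total counts ran from 5971331 to 7135670 reads per bird, and levels are given as CPM, counts scaled to a fixed library size, after TMM scaling. A difference is the log2 of the male level over the female level, so that 1 is a doubling in males and a negative value is higher in females. A gene is said to have been higher in 1 sex where edgeR's quasi-likelihood test gave an adjusted p under 0.05 over all 10382 genes tested. No chromosome was given with the counts, so Z genes were taken from a hand-written list of 569 genes known to lie on the avian Z, of which 374 were tested. The list is incomplete, and a longer one of 445 tested genes was drawn up after the values had been seen.

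The sex labels fitted the libraries. CHD1W, the W copy of a chromatin-remodelling gene, was at 29.6, 38.8, 26.8, 37.1, 34.0 and 33.7 CPM in females 1, 2, 3, 4, 5 and 7. It had no read in any of the 6 males. All 1304 reads came from females, and 3 reads over the males together would have been 0.0787 CPM, so the female mean of 33.3 was at least 424-fold higher.

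Females 2, 4 and 5 stood apart from the other birds on the first principal component of log2 CPM. It took 40.9% of the variance, with the males between -23.4 and -11.5, females 7, 1 and 3 at -5.99, -3.13 and 8.41, and females 4, 5 and 2 at 24.6, 28.3 and 50.2. On the second component, with 14.6%, females 7 and 1 were the lowest birds, at -25.7 and -20.0, and the males lay between -3.47 and 14.3. The summed level of 5 choroid plexus and ependyma markers, genes of the tissue that makes cerebrospinal fluid, was 3587 CPM in female 2 and 2605 CPM in female 4. It was 75.1 to 295.7 CPM in the other 10 birds, and most of it was TTR, the transthyretin gene, at 3511 and 2524 CPM in these females. The part of this tissue or of sample dissection in the sex differences was not tested, and the main counts of called genes are also given without females 2, 4 and 5. Leaving out 3 of 6 females also lowers the power of the test, so a call lost in that fit does not by itself show that these birds carried the difference. Females 7 and 1 were kept in it.

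**Figure D1:**
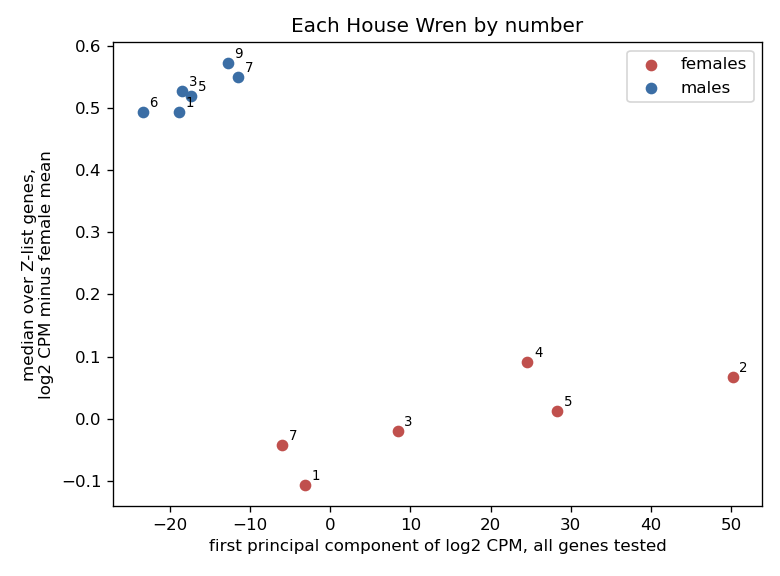
Each House Wren, numbered as labelled, by its first principal component of log2 CPM (x axis) and by the median over the Z-list genes of its log2 CPM minus the mean of the females (y axis). The males lie between 0.49 and 0.57 on the y axis and the females between -0.11 and 0.09, while females 4, 5 and 2 lie apart on the x axis.

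Of the 10382 genes, 496 (4.78%) differed between the sexes, of which 379 (3.65%) were higher in males and 117 (1.13%) in females. The Z list held 187 of the male-higher genes, 50% of the 374 tested, and 4 of the female-higher ones (1.07%). That left 192 male-higher genes (1.92% of 10008) and 113 female-higher genes (1.13%) outside the list. Without females 2, 4 and 5 the counts were 235 and 40, and 146 of the 187 male-higher Z genes were still called. All males lay above all females for 307 genes (2.96%), and all females above all males for 114 genes (1.1%).

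The Z genes were higher in males as a group. Their median difference was 0.52, a male level 1.43 times the female one, beside -0.02 over the 10007 genes outside the Z and W lists. The quartiles of the Z genes lay at 0.21 and 0.77, and 320 of the 374 (85.6%) were above 0, beside 45.9% of the other genes. Only 24 Z genes reached 1, a doubling in males. Bird by bird, the median over the Z genes was 0.49 to 0.57 above the female mean in the males and -0.11 to 0.09 in the females, with no overlap. Females 4, 2 and 5 were the highest females, at 0.09, 0.07 and 0.01. Without these females the median difference of the Z genes was 0.59. The 125 Z genes with the lowest levels had a median of 0.59, the 124 in the middle one of 0.51 and the 125 with the highest levels one of 0.44.

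**Figure D2:**
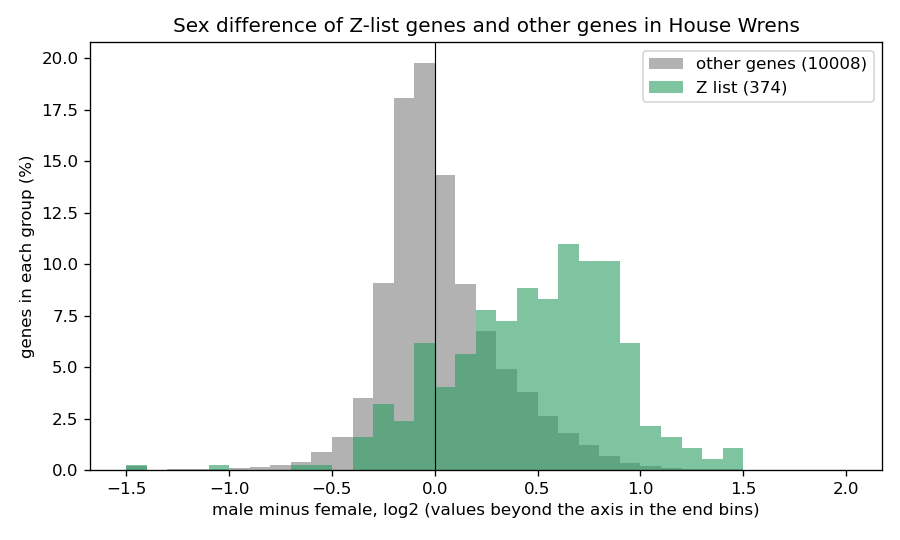
Male minus female log2 differences (x axis) of the 374 Z-list genes tested and of the 10008 other genes, as a percentage of each group (y axis). The Z genes centre on 0.52 and the other genes on -0.02.

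Among the Z genes that rose in males were genes for protein synthesis. RPS23, a protein of the small ribosomal subunit, was at 87.9, 36.1, 71.8, 72.4, 56.9 and 78.7 CPM in females 1, 2, 3, 4, 5 and 7 and at 192, 147, 154, 204, 157 and 163 CPM in males 1, 3, 5, 6, 7 and 9. Every male lay above every female, and the difference was 1.33 (SE 0.17, adjusted p = 0.000117). RPS6, another protein of that subunit and a target of growth signalling, rose from 375 ± 21.3 to 687 ± 62.8 CPM (SD, n = 6 in each sex). RPL17, of the large subunit, rose from 131 ± 11.1 to 293 ± 26.4 CPM, and its counts were identical to those of 1 unnamed entry, so the 2 entries count the same reads. MRPS30 and MRPS36, of the mitochondrial ribosome, rose by 0.96 and 0.64. In the lists of all such genes on any chromosome, 3 of 83 cytosolic ribosome genes and 3 of 63 mitochondrial ribosome genes were higher in males, or 3.61% and 4.76% beside 3.65% of all genes tested. In the same lists 2 and 1 were higher in females, and the medians were -0.05 and -0.06.

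Z genes of metabolism and the mitochondrion also rose. GRHPR, the glyoxylate reductase, was at 4.75, 3.68, 7.03, 3.41, 4.15 and 5.36 CPM in the females and at 14.4, 10.9, 17.9, 17.1, 8.34 and 10.9 CPM in the males. The sexes did not overlap, and the difference was 1.48 (SE 0.23, adjusted p = 0.000718). GALT, which handles galactose, showed the same size of difference, 1.48, at a low level of 1.85 ± 0.83 CPM in females and 5.21 ± 1.77 in males, and it missed the threshold without females 2, 4 and 5 (adjusted p = 0.0836). HINT2, a mitochondrial nucleotide hydrolase, and TOMM5, of the import channel in the outer membrane, rose by 1.33 and 1.22. NDUFS4, of respiratory complex I, rose by 0.80 and ATP5F1A, of the ATP synthase, by 0.47, whereas 3 of the 69 nuclear genes of oxidative phosphorylation were higher in males in all (4.35%, beside 3.65% of all genes tested). HSD17B4, a peroxisomal enzyme of fatty acid breakdown that also acts on oestradiol, rose from 321 ± 37.4 to 545 ± 47.0 CPM.

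Regulators on the Z list rose too. CDK7, a kinase that activates other cyclin-dependent kinases and RNA polymerase II, rose by 1.13 (SE 0.20). RGP1, part of the complex that activates RAB6 at the Golgi, rose from 10.8 ± 1.51 to 26.3 ± 1.02 CPM, a difference of 1.28 (adjusted p = 3.46e-06). SLF1, a partner of the SMC5/6 complex in DNA repair, rose by 1.25, with female 4 at 50.1 CPM and the other females at 14.7 to 24.6. TRMT10B, a tRNA methyltransferase, and ZCCHC9, a zinc-knuckle protein, rose by 1.42 and 1.25, and TMEM8B, a membrane protein, by 1.14. RNF20, a ligase that attaches ubiquitin to histone H2B, and SMARCA2, the ATPase of a chromatin-remodelling complex, rose by 0.82 and 0.57. UBAP1, of the ESCRT machinery, PLAA, a ubiquitin-binding protein, and DNAJA1, an Hsp40 co-chaperone, rose by 0.85, 0.82 and 0.88. DHX29, a helicase of translation initiation, rose by 0.71 and SETD9 by 0.89.

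Z genes for receptors, channels, synaptic vesicles and neuronal transcription factors followed. GHR, the growth hormone receptor, was at 9.99, 9.03, 10.4, 10.2, 9.59 and 8.67 CPM in the females and 17.9, 15.2, 15.5, 18.4, 14.2 and 14.1 CPM in the males. The groups did not overlap and the difference was 0.72 (SE 0.12, adjusted p = 0.00136). UNC13B and RAB3C, which prime and tether synaptic vesicles, rose by 0.50 and 0.57. SEMA4D, an axon guidance ligand, rose by 0.48, KCNN2, a calcium-activated potassium channel, by 0.62, and GRIN3A, an NMDA receptor subunit, by 0.89. The integrin ITGA2 rose by 0.68 and the lipid exporter ABCA1 by 0.38. The transcription factors NR2F1 and ISL1, of the pallium and of striatal precursors, rose by 0.92 and 0.91, and GADD45G, a stress-response gene, by 1.49. Without females 2, 4 and 5, the calls of KCNN2, GRIN3A, ABCA1, NR2F1, ISL1 and GADD45G were lost, with differences of 0.41, 0.95, 0.30, 0.48, 0.77 and 1.41.

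For Z genes that have a copy on the W in songbirds or other birds, the table cannot show whether reads of the W copy were counted under the Z gene. The list held 16 tested genes, with a median of 0.44, beside 0.52 over the 358 Z-list genes without a W copy. Of the 16, 8 were higher in males, which is 50%, the same share as in the whole Z list. TNPO1 was higher in females. CHD1 itself was at 83.7 to 127.5 CPM in females and at 138.6 to 153.4 CPM in males, a difference of 0.53 (SE 0.10, adjusted p = 0.00347). GOLPH3, a Golgi protein, rose by 0.80, beside -0.11 in the other species fitted together. With each of these 9 fitted alone, it ran from -4.67 in the Yellow Warbler to 0.89 in the Tree Swallow. GOLPH3 was positive in 6 and negative in 3, and called male-higher in 3 and female-higher in 1. The Carolina Wren had -1.59 with all birds and was not called. Without its female 1 and male 3, which go against their labels in CHD1W, it had -3.11 and was called female-higher by edgeR (adjusted p = 2.09e-06). Among the others, BTF3, a factor that binds nascent proteins, rose by 0.88, HNRNPK, an RNA-binding protein, by 0.65, and RASA1, which switches off RAS, by 0.69. SMAD7, UBQLN1 and ATP5F1A completed the 8. NIPBL, SMAD2, SPIN1, TXNL1, UBE2R2, ZFR and ZNF532 did not pass the test, with differences from -0.27 to 0.40. Without females 2, 4 and 5 the median over the 16 was 0.29.

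Of the 374 Z-list genes tested, 4 were higher in females, or 1.07% beside 1.13% of all genes tested. PTCH1, the receptor for Hedgehog ligands, was at 44.5, 45.7, 49.2, 51.9, 39.8 and 38.0 CPM in females 1, 2, 3, 4, 5 and 7 and at 12.1, 9.03, 10.7, 9.99, 10.3 and 9.38 CPM in males 1, 3, 5, 6, 7 and 9. The highest male lay below the lowest female, and the difference was -2.13 (SE 0.11, adjusted p = 1.09e-08). It was -2.10 without females 2, 4 and 5 (adjusted p = 1.04e-06).

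RPL37, a protein of the large ribosomal subunit, was at 81.0, 124, 80.0, 116, 81.3 and 66.7 CPM in the females and at 44.4, 43.8, 28.7, 46.9, 49.0 and 47.1 CPM in the males. All females lay above all males, with a difference of -1.08 (SE 0.16, adjusted p = 0.000595), and of -0.81 without females 2, 4 and 5 (adjusted p = 0.0059). ANKS6, a ciliary protein, and TNPO1, a nuclear import receptor that also has a W copy, differed by -0.39 and -0.33, each with an adjusted p of 0.0485. Both calls were lost without females 2, 4 and 5.

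**Figure D3:**
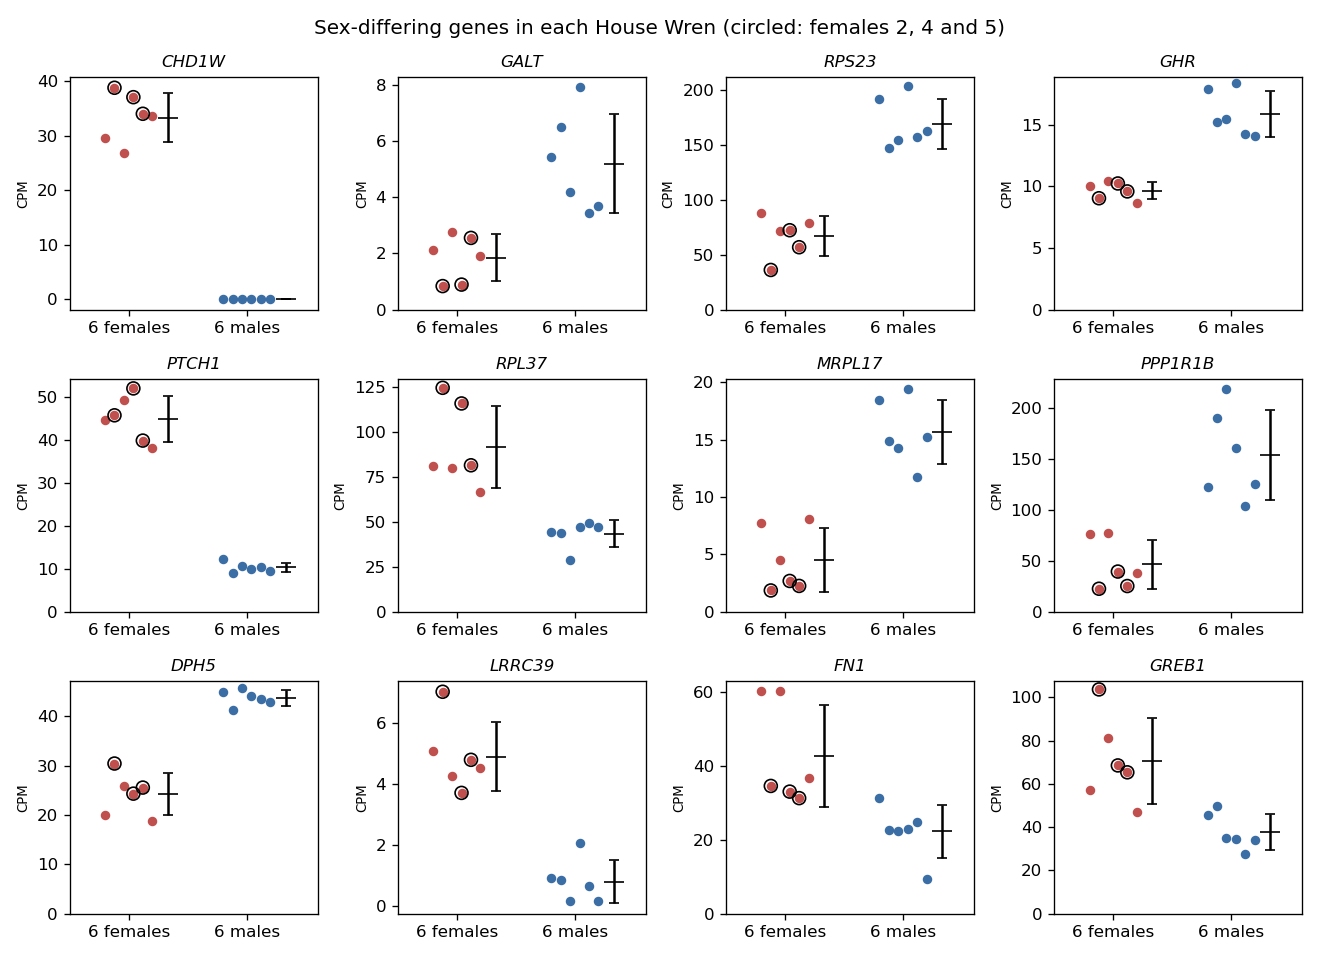
Level in CPM (y axis, linear) of 12 genes in each of the 6 females and 6 males, with the mean and SD of each sex beside the points and with females 2, 4 and 5 circled. CHD1W is at 0 in every male, PTCH1, RPL37 and LRRC39 are higher in every female than in any male, and GALT, RPS23, GHR, MRPL17, PPP1R1B and DPH5 are higher in every male than in any female.

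Male-higher genes outside the Z lists were then sorted by the other 9 species, whose 109 birds took no part in the House Wren test. All 109 were kept under their labels, among them 2 Carolina Wrens that go against theirs in CHD1W, and leaving out these and 4 other libraries gave the same counts of shared and unshared genes. A gene was called shared where males of those species, with species as a covariate, were higher by at least 0.3 with an adjusted p under 0.05 in edgeR's quasi-likelihood test. That held for 407 of 10646 genes (3.82%). Among the genes tested in House Wrens, it held for 289 of 374 on the Z list and for 49 of 9937 outside the longer Z list. Of the 187 male-higher Z-list genes 183 were shared. The longer Z list took up 42 more male-higher genes, AK6 and FAM151B among them, and left 150 outside it, of which 30 were shared and 120 were not. The unnamed entry that counts the same reads as RPL17, a Z-list gene, is among the 150.

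The shared genes outside the Z lists included 17 with a symbol. MRPL17, of the mitochondrial ribosome, was at 7.70, 1.84, 4.54, 2.67, 2.24 and 8.12 CPM in the females and at 18.5, 14.9, 14.3, 19.4, 11.8 and 15.2 CPM in the males. The sexes did not overlap and the difference was 1.78 (SE 0.31, adjusted p = 0.00253), beside 0.84 in the other species. EMC4, of the complex that inserts proteins into the endoplasmic reticulum membrane, rose by 1.48 in House Wrens and 0.82 in the other species. TAF1C, a factor of RNA polymerase I, rose by 1.32 and EXOSC5, of the RNA exosome, by 1.27. With each other species fitted alone, MRPL17 was positive in all 9 and called in 1. EXOSC5 was tested in 4 of them, was positive in each (0.01 to 1.96) and was called in 1. ATP5ME, of the ATP synthase, rose from 93.8 ± 7.64 to 177 ± 9.42 CPM, a difference of 0.92 (adjusted p = 7.4e-07), and PIGG, PCGF3, DGKQ and IDUA, its neighbours in the human genome, rose by 0.78, 0.53, 0.54 and 0.62. LSM5, an RNA-binding protein of the spliceosome, rose by 0.70, and NRG1, the neuregulin ligand, by 0.66. The chromosome of these genes was not given in the sources used here, and with females 2, 4 and 5 left out, the male-higher shared genes outside the longer Z list numbered 24. The call of EXOSC5 was lost (0.77, adjusted p = 0.0569).

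The 120 genes that were male-higher in House Wrens and not shared included 107 with a symbol. PPP1R1B, which encodes DARPP-32, the dopamine-regulated phosphatase inhibitor of striatal neurons, was at 76.1, 22.4, 76.7, 39.3, 25.1 and 38.2 CPM in the females and at 122, 190, 219, 161, 104 and 126 CPM in the males. The lowest male lay above the highest female, and the difference was 1.73 (SE 0.29, adjusted p = 0.00196). It was 1.27 without females 2, 4 and 5 (adjusted p = 0.0164). In the other species it was -0.12 over all and between -0.79 and 0.99 by species.

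Ion channel and synaptic genes among them are named here from lists or after their values were seen. Outside the Z list, 1 of 60 synaptic release genes, 1 of 39 GABA and glutamate genes and 2 of 56 synaptic adhesion genes were male-higher, beside 1.92% of all genes outside it, and 2 adhesion genes were female-higher. KCNAB1 and KCNJ4, of voltage-gated and inward rectifier potassium channels, rose by 0.62 and 0.63 and KCNH6 by 0.57, which made 3 of 55 potassium channel genes outside the Z list. With KCNN2, on that list, they made 4 of 56 (7.14%, beside 3.65% of all genes tested). CACNG3, CACNA1A and CACNB1, of calcium channels and AMPA receptors, rose by 0.78, 0.43 and 0.81. They made 3 of 40 cation channel genes (7.5%, beside the same 3.65%), and 3 of 39 outside the Z list. GRM4, a glutamate receptor that damps release, rose by 0.61 and the scaffolds SHANK3 and DLGAP3 by 0.84 and 0.77. LRRTM4 and PCDH10, synaptic adhesion proteins, rose by 0.59 and 0.37, RGMA, a repulsive guidance cue, by 0.64, NRGN and CAMK2B, of calmodulin signalling, by 0.49 and 0.56, and SYT7, a calcium sensor of vesicles, by 0.35. LHX6, a transcription factor of inhibitory interneurons, rose by 0.99. The maintenance and de novo DNA methyltransferases DNMT1 and DNMT3A rose by 0.84 and 0.44, the splicing factor PRPF31 by 1.25, and the stress gene DDIT4, the collagen COL9A3 and the membrane proteins TMEM61 and TMEM271 by 1.19, 1.18, 1.30 and 1.20. IL10RB, a cytokine receptor, and RNF19B, a ubiquitin ligase, rose by 0.52 and 0.33.

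Females 2, 4 and 5, apart on the first component, were often the extreme birds in these unshared differences. Female 2 was the lowest of all birds in 64 of the 120 genes, female 5 in 25 and female 4 in 14, while for the 187 male-higher Z genes females 1 and 7 were lowest most often, in 60 and 46. Of the 120, 68 had no overlap between the sexes, beside 307 of all 10382 genes tested (2.96%). The 120 had been picked by the test of the same birds, which favours genes without overlap. Without females 2, 4 and 5, 16 of the 120 were still called, among them PPP1R1B, PRPF31, TMEM61, RGMA, OTOF and RBFOX3, the last a neuronal splicing regulator. SHANK3, DLGAP3, CAMK2B, DNMT1 and DNMT3A were not among the 16. Calls were also lost for KCNAB1, KCNJ4, KCNH6, CACNG3, CACNA1A, CACNB1, GRM4, NRGN, SYT7, LHX6, LRRTM4, PCDH10, TMEM271, DDIT4, COL9A3, IL10RB and RNF19B, with adjusted p from 0.0569 to 0.344. Some of their differences stayed about as large, such as 0.60 for KCNJ4, 0.56 for LRRTM4, 1.17 for COL9A3, 0.60 for IL10RB and 0.51 for KCNH6, and others were smaller, such as 0.25 for CACNA1A and 0.40 for GRM4.

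Of the 15 genes with a symbol that stayed, 7 lie close together in the human genome, on the short arm of chromosome 1 between SELENOF and DPH5, a stretch looked at only after these values had been seen. DPH5, an enzyme that modifies elongation factor 2, was at 20.0, 30.4, 25.9, 24.3, 25.6 and 18.8 CPM in the females and at 45.0, 41.3, 45.8, 44.1, 43.5 and 42.9 CPM in the males. The groups did not overlap, with a difference of 0.86 (SE 0.11, adjusted p = 0.000146). DPYD, which breaks down pyrimidines, rose by 1.00, KYAT3, a kynurenine aminotransferase, by 0.73, RTCA, the RNA cyclase, by 0.72, SELENOF, a selenoprotein of the endoplasmic reticulum, by 0.53, RPAP2, an RNA polymerase II phosphatase, by 0.48 and HS2ST1, a heparan sulfate sulfotransferase, by 0.42. A hand-written list of the stretch held 48 tested genes with a median of 0.18, of which these 7 were male-higher and LRRC39, SASS6, GTF2B and RPL5 were female-higher. Of all genes outside the Z list 1.92% were male-higher and 1.13% female-higher. Called genes set the ends of the stretch, so its counts are a description and not a test.

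The Carolina Wren, the other wren of the series and a facultative cavity nester, was set beside them. The library labelled female 1 had 55 CHD1W reads, beside 337 to 424 in the other females, and the library labelled male 3 had 473, beside 51 to 92 in the other males, so these 2 were left out. Among the other 10 birds, DPH5, RTCA, KYAT3, SELENOF and RPAP2 were higher in males by 0.83, 0.90, 1.46, 0.85 and 0.55, with adjusted p of 0.00213, 0.00102, 0.000794, 0.000142 and 0.00404. DPYD and HS2ST1 had values of 0.67 and 0.26 and did not pass. In the 8 species outside the wrens DPH5 lay between -0.23 and 0.14, RTCA between -0.21 and 0.24 and RPAP2 between -0.09 and 0.07. The ranges were wider for SELENOF, from -1.2 to 0.25, KYAT3, from -0.55 to 0.33, and HS2ST1, from -0.18 to 0.43, and DPYD lay between -0.19 and 0.15. With all 12 Carolina Wrens the 7 values ran from 0.17 to 1.12, and no gene of that species passed the test.

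Females were higher for 117 genes, of which 17 had no symbol. CHD1W and 11 of these unnamed entries differed by more than 2 on the log2 scale, and all 11 were also female-higher in the other 9 species by at least 0.3 (0.319% of 10646 genes were). The entry LOC100189940 was at 63.96 to 97.52 CPM in females and at 0 in 5 males, with 0.152 CPM in male 1. Beside CHD1W, only 2 genes with a symbol were female-higher in House Wrens and in the other species by that rule, GREB1 and SQLE. GREB1, an oestrogen-induced gene, was at 57.3, 104, 81.3, 68.5, 65.3 and 47.0 CPM in the females and at 45.4, 49.7, 34.8, 34.4, 27.6 and 34.2 CPM in the males. The groups overlapped through female 7, with a difference of -0.90 (SE 0.18, adjusted p = 0.00729) in House Wrens and -0.37 in the other species. SQLE, the squalene epoxidase of cholesterol synthesis, was lower in males by -0.48 in House Wrens and -0.31 in the other species. Without females 2, 4 and 5 the differences were -0.72 and -0.44, and neither passed (adjusted p = 0.0769 and 0.0935).

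The remaining female-higher genes outside the Z and W lists numbered 95 with a symbol, with GREB1 and SQLE. LRRC39, a leucine-rich repeat protein known from muscle, was at 5.08, 7.03, 4.25, 3.71, 4.79 and 4.54 CPM in the females and at 0.909, 0.836, 0.150, 2.06, 0.654 and 0.168 CPM in the males. Every female lay above every male, and the difference was -2.57 (SE 0.40, adjusted p = 0.000752), or -2.48 without females 2, 4 and 5. TOMM34, a co-chaperone of mitochondrial import, fell from 10.5 ± 1.68 CPM in females to 6.06 ± 0.78 in males, a difference of -0.79 (adjusted p = 0.00516).

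Of 56 extracellular matrix genes in the list, FN1 alone was higher in females (1.79%) and 2 were higher in males (3.57%). These shares were near the 1.13% and 3.65% of all genes tested. FN1, fibronectin, was at 60.3, 34.6, 60.5, 33.1, 31.3 and 36.7 CPM in the females and at 31.4, 22.7, 22.5, 23.1, 24.9 and 9.38 CPM in the males. Male 1 lay just above female 5, and the difference was -0.93 (adjusted p = 0.0373). THBS1, thrombospondin, fell from 24.8 ± 5.49 CPM in females to 14.4 ± 2.56 in males. FN1 remained called without females 2, 4 and 5 (adjusted p = 0.0183), and THBS1 did not (0.0822). Single genes of signalling pathways, most of them named after their values were seen, were female-higher too. LEF1, a transcription factor of Wnt signalling, differed by -0.82, BAMBI, a decoy receptor of the TGF-beta family, by -0.63, and GPC3, a glypican, by -0.40. GLI3, the Hedgehog transcription factor, and TGFBR2 differed by -0.40 and -0.42. VIM, the intermediate filament vimentin, differed by -0.50. CFAP221, a protein of motile cilia, fell from 7.90 ± 3.14 CPM in females to 3.61 ± 0.81 in males, IL17RD, which damps growth factor signalling, differed by -0.84, PM20D2 by -0.79 and TMEM255B by -0.69. Of 59 motile cilia genes CFAP221 alone was called (1.69%, beside 1.13% of all genes tested). The list's median was -0.20, beside -0.02 over all genes tested. Females 2, 4 and 5 had CFAP221 at 8.70, 10.1 and 12.5 CPM, and choroid plexus and ependyma marker sums of 3587, 2605 and 113 CPM. The part of that tissue in the cilia genes was not tested.

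GAD1, the glutamate decarboxylase that makes GABA, fell from 477 ± 26.5 CPM in females to 406 ± 19.0 in males, and ABAT, which breaks GABA down, and the transporter SLC6A11 differed by -0.27 and -0.48. The cadherins CDH19 and CDH12 differed by -0.53 and -0.36, and the guidance ligand SEMA6D by -0.32. PSMA4, of the proteasome, differed by -0.44, MRPS5, of the mitochondrial ribosome, by -0.27, and RPL5, of the cytosolic ribosome, by -0.32. HEMGN, a blood-cell gene that the longer Z list also holds, was at 3.36 ± 1.57 CPM in females and 1.35 ± 0.58 in males, a difference of -1.29 (adjusted p = 0.0485), and the 9 blood markers summed to 924 to 2741 CPM in females and 1111 to 2083 in males.

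Female 2 was the highest of all birds in 28 of the 95, female 4 in 22 and female 5 in 16. Without these 3 females 17 of the 95 were still called, among them LRRC39, TOMM34, FN1, BAMBI, GPC3, SCP2 and UGP2. GLI3, TGFBR2, VIM, ABAT, SLC6A11, RPL5, SASS6 and GTF2B were not among the 17. HEMGN was lost as well, with a difference of -1.25 (adjusted p = 0.0883). CFAP221, LEF1, GAD1, CDH19, CDH12, SEMA6D, PSMA4, MRPS5, IL17RD, PM20D2 and TMEM255B no longer passed, with adjusted p from 0.0636 to 0.371. The differences of IL17RD, PM20D2, SEMA6D, MRPS5 and LEF1 were then -0.93, -0.82, -0.33, -0.24 and -0.72, close to those over all birds, and that of CFAP221 was -0.58.

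Genes of sex steroids, peptides and monoamines were counted next. Of 20 sex steroid genes 1, HSD17B4, was higher in males and 1, GREB1, in females, beside 3.65% and 1.13% of all genes tested. None of 30 neuropeptide genes, 28 monoamine genes, 10 stress axis genes or 20 clock genes was called by edgeR, and their medians were 0.03, 0.10, 0.08 and 0.04 beside -0.02 over all genes tested. Among 16 tested genes of hormone and transmitter signalling named for their part in social behaviour, GHR alone passed. CYP19A1, the aromatase that makes oestradiol, was at 20.96, 17.9, 17.4, 30.0, 15.7 and 17.5 CPM in the females and at 32.4, 31.4, 30.9, 19.3, 19.5 and 30.2 CPM in the males. The groups overlapped through females 1 and 4 and males 6 and 7, and the difference of 0.45 (SE 0.18) did not pass (adjusted p = 0.157). The oestrogen receptors ESR1 and ESR2 had differences of -0.19 and -0.71 (adjusted p = 0.635 and 0.0999).

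TH, the first enzyme of dopamine synthesis, had a difference of -1.03 with a wide spread, 14.1 ± 7.96 CPM in females and 6.94 ± 3.27 in males (adjusted p = 0.128). The dopamine receptors DRD1 and DRD2 had 0.33 and 0.68, the serotonin receptor HTR1A 0.36, the vasotocin receptor AVPR1A -0.64, and the VIP receptor VIPR1 -0.02. The stress genes NR3C1 and CRH had 0.11 and 0.38, the gonadotropin inhibitor NPVF -0.55 and the 5-alpha reductase SRD5A2 -0.06. PRLR, the prolactin receptor on the Z, was at 31.8 ± 6.67 CPM in females and 36.5 ± 6.89 in males, a difference of 0.20 (adjusted p = 0.429), while it was 0.81 in the other species. That contrast did not pass the test of the difference (adjusted p = 0.395).

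Calls among cell type markers were counted in each list. No marker of oligodendrocytes (11 tested), astrocytes (8), microglia (7), endothelium and mural cells (16), choroid plexus and ependyma (5) or hypothalamus (5) passed. NRGN, 1 of 11 excitatory markers (9.09%), was higher in males, and HEMGN, 1 of 9 blood markers (11.1%), in females. Of 22 inhibitory and striatal markers PPP1R1B, LHX6 and ISL1 were higher in males (13.6%) and GAD1 in females (4.55%). Among all genes tested these shares were 3.65% and 1.13%. ISL1 is on the Z list, and outside it 2 of 21 inhibitory and striatal markers were male-higher, beside 1.92% of all genes outside it. Without females 2, 4 and 5, PPP1R1B was still called, while NRGN, HEMGN, LHX6, ISL1 and GAD1 were not. The 22 markers summed to 2344 to 3017 CPM in females and 2463 to 3213 in males. The median was 0.36 over these 22, and 0.38 over the excitatory markers, beside -0.02 over all genes tested. The medians were -0.66 over the choroid plexus and ependyma markers, -0.30 over the blood markers and -0.28 over the hypothalamus markers, and 1 marker of each of these lists was above 0. In bulk tissue, fewer cells of a type and less RNA per cell cannot be told apart.

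The House Wren sex difference was last tested against that of the other 9 species, in 1 edgeR quasi-likelihood fit over all 121 birds. It differed for 16 of 10648 genes (0.15%), 11 of them with a symbol. Of the 5 unnamed ones, LOC116806889 and LOC116806651 were shifted towards males by 5.10 and 2.91 (adjusted p = 1.47e-11 and 0.0431). Their differences were -4.76 and -3.09 in the other species and 0.38 and -0.13 in House Wrens, where neither was called. LOC116806869, LOC121468357 and LOC116806872 were shifted towards females by -4.31, -2.98 and -0.51. PTCH1 had the largest shift of those with a symbol, -2.65 (SE 0.21, adjusted p = 6.34e-19), with 0.48 in the other species. On the scale of all birds its House Wren medians were 47.0 CPM in females and 10.2 in males. The Eurasian Tree Sparrow had 46.9 in females and 70.5 in males, and the Eastern Bluebird had 3.65 and 7.66. All 9 other species had a positive difference, from 0.01 in the Barn Swallow to 1.22 in the Eastern Bluebird.

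RPL37 was shifted by -1.89 (SE 0.20, adjusted p = 5.79e-12). It was male-higher in the other species by 0.76, from 0.37 to 0.97 in each, and its House Wren medians of 83.0 CPM in females and 45.7 in males lay below the medians of either sex in every other species, the lowest of which was 163 in female Eastern Bluebirds. LRRC39 was shifted by -2.60 (adjusted p = 7.89e-05) and TOMM34 by -0.82 (adjusted p = 0.00406), with differences of -0.02 and -0.01 in the other species together. Fitted alone, LRRC39 was tested in 6 of these species, from -0.44 to 0.33. The Carolina Wren was not among them, with low LRRC39 medians of 0.663 CPM in females and 0.482 in males on the scale of all birds. SELENOP, the secreted selenium carrier, and PRKAA1, the catalytic subunit of AMP kinase, both on the Z list, were male-higher in the other species by 0.63 and 0.64 and had differences of -0.25 and -0.02 in House Wrens, shifts of -0.91 and -0.69 (adjusted p = 0.0198 and 0.0241). On the same scale of all birds, PRKAA1 was at 30.3 to 42.5 CPM in House Wren females and at 30.7 to 38.5 CPM in the males.

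DPH5, PRPF31 and ATCAY, a protein of cerebellar and other neurons, were shifted towards males, by 0.82, 1.37 and 0.97 (adjusted p = 0.00833, 0.0101 and 0.0119). Against the Carolina Wren alone, without its female 1 and male 3, the DPH5 shift was 0.02 and did not pass the test. CAPN7, a calpain protease, and TRPM8, the cold-sensing channel, were shifted towards females by -0.83 and -1.24 (adjusted p = 0.0198 and 0.0499). ATCAY, CAPN7 and TRPM8 did not pass the test within House Wrens. KPNB1 and SUGP2, next in order, had shifts of 0.42 and 1.06 and each an adjusted p of 0.0605. Only 2 of the 120 unshared male-higher genes, DPH5 and PRPF31, passed the test of the difference, so for the others a difference from the remaining species was not shown. With females 2, 4 and 5 left out there were 13 calls, and those of ATCAY, CAPN7, PRKAA1, PRPF31 and TRPM8 were lost. Leaving out 6 libraries of other species gave 24.

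**Figure D4:**
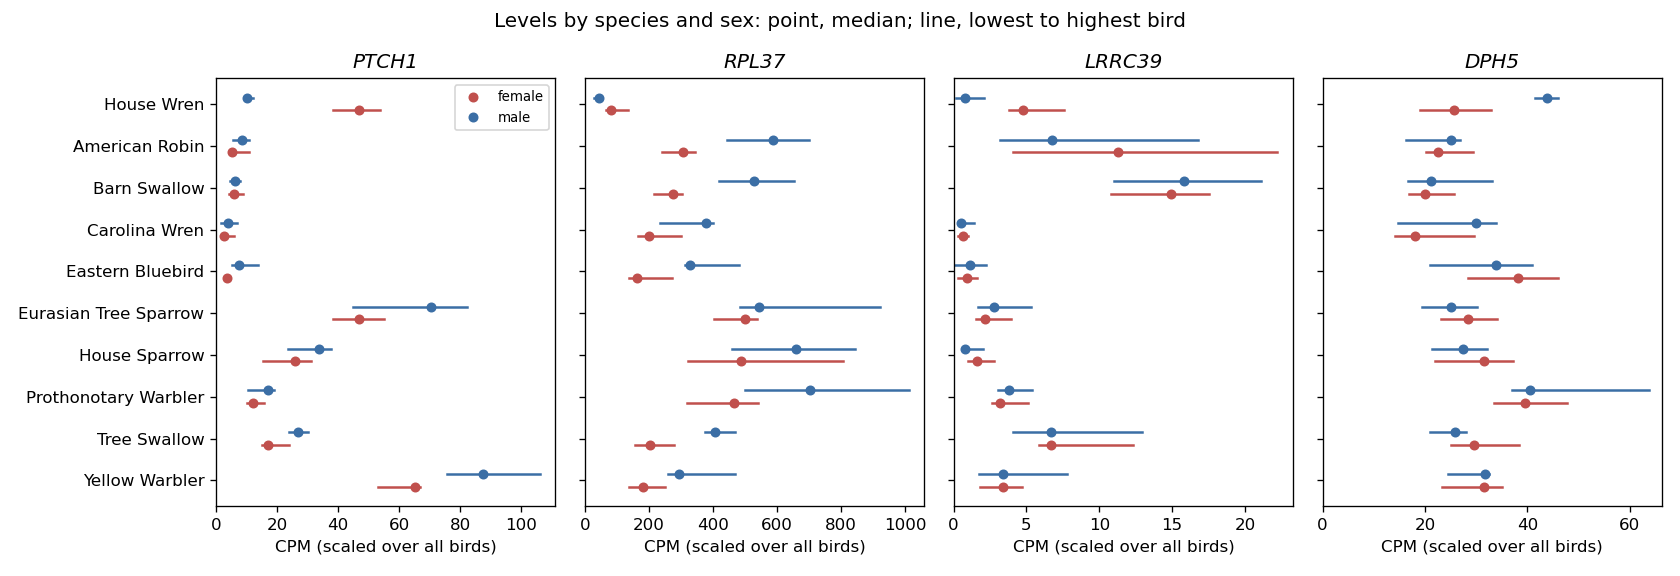
Levels of PTCH1, RPL37, LRRC39 and DPH5 in CPM (x axis, linear, scaled over all birds) in females and males of each species, as the median and the range of the birds. PTCH1, RPL37 and LRRC39 are higher in House Wren females than in House Wren males, and RPL37 is lower in House Wrens than in any other species.

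By count of sex differences the House Wren stood at the top of the species when each was fitted alone. It had 496, beside 352 in the 13 Tree Swallows and 190 to 290 in 7 other species. The Carolina Wren had 0 by edgeR with all birds, and 250 without its female 1 and male 3. Male-higher Z-list genes numbered 187 in the House Wren, 213 in the Tree Swallow and 191 in the Prothonotary Warbler. With all House Wrens the Z median of 0.52 was below the 0.58 to 0.71 of the other species, apart from the 0.40 of the Carolina Wren with all birds. Without House Wren females 2, 4 and 5 it was 0.59, within that range. Outside the longer Z list the House Wren had 150 male-higher genes and the others 0 to 65. Female-higher genes with a symbol outside the Z and W lists numbered 95 in the House Wren and 0 to 22 in the others. Differences between these counts were not tested. Without females 2, 4 and 5, a fit with less power, the House Wren had 275 calls, fewer than the Tree Swallow, with 235 male-higher and 40 female-higher. The male-higher genes outside the longer Z list were then 24 shared and 18 unshared ones, so the House Wren's place at the top rests on the fit of all its birds.

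**Figure D5:**
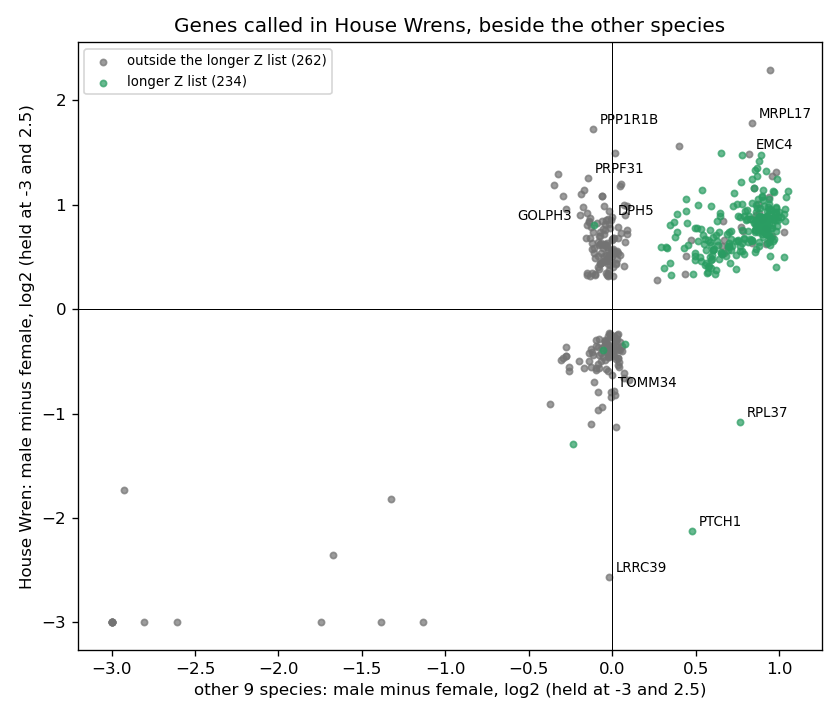
Genes called in House Wrens, by their male minus female log2 difference in the other 9 species (x axis) and in House Wrens (y axis), with genes of the longer Z list in green and values beyond -3 or 2.5 drawn at those limits. Most Z genes are male-higher on both axes, PTCH1 and RPL37 are Z genes with opposite signs, and most genes outside the list lie near 0 in the other species.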

How the data were processed

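RNA sequencing libraries of 12 House Wrens were analysed beside 109 birds of 9 other species. Per the labels' protocols, RNA was isolated with phenol and chloroform and libraries were made with the TruSeq Stranded mRNA HT kit. The deposited table holds raw whole-number counts of reads for 10672 genes, of which 911 have no symbol. Tools named per the submitters' processing notes, with no role or order, are fastp 0.20.1, Trimmomatic 0.36, SAMtools 1.10, Bowtie2 2.4.4 and featureCounts from Subread 2.02z. The sources used here do not name a genome or annotation, though 1 column is headed as zebra finch protein identifiers, so how well each House Wren gene was mapped, and whether Z and W copies were kept apart, is unknown.

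Birds were grouped by the labels. The sexes were compared in R 4.3.3 with edgeR 4.0.16 (glmQLFit and glmQLFTest, two-sided) on TMM-scaled counts after filterByExpr, with no covariate and with Benjamini-Hochberg adjustment over all genes tested. SE is the log2 difference divided by the square root of F. The difference from the other species was tested with species, sex and sex within House Wrens as terms. Alternatives used limma 3.58.1, DESeq2 1.42.0 and sva 3.50.0, and the fits were tested on simulated data. For principal components, log2 CPM had a prior count of 2. Floors of 3 counts cover counting error only.

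Members and gene lists were chosen with earlier results of these data known. Genes were named by a rule: where 1 sex averaged 5 CPM or more, the 12 Z genes and the 12 other genes highest in males, the 12 highest in females outside the W, Z genes higher in females, W genes, up to 4 called members of each list with the smallest p, 18 hormone and transmitter genes (16 tested), and the 5 genes with a symbol of smallest p in each direction against the other species. LRRC39 lies just under that mean and was named by the last part. Further called genes were named after their values were seen: SHANK3, DLGAP3, CAMK2B, DNMT1, DNMT3A, BAMBI, GPC3, GLI3, TGFBR2, VIM, ABAT, SLC6A11, OTOF, RBFOX3, SCP2, UGP2, PIGG, PCGF3, DGKQ, IDUA, NRG1, the genes near DPH5, PRLR's test, and the Z genes with a W copy beyond the first 4. The synaptic release list also took SNAPC3 by its first letters. The sharing rule, the longer Z list and the fits without females 2, 4 and 5 were added after the values were seen. A few genes that this rule names are not reported here. No sequence or coordinate was used, since no genome was given here.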

Additional observations from a re-analysis of the deposited data

Results flagged for a closer look

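Single birds lay far from the others of their sex in 16 of 230 tests, 1 for each sex and named gene, and chance flags about 1 in 20. Among females, TRMT10B was 2.72 CPM in female 5, beside 4.35 to 4.89 in the others, SLF1 was 50.1 in female 4, beside 14.7 to 24.6, PLAA was 128 in female 4, beside 102 to 111, RNF20 was 201 in female 2, beside 173 to 183, KCNH6 was 10.4 in female 2, beside 13.9 to 15.7, ESR2 was 18.8 in female 1, beside 7.19 to 11, and CYP19A1 was 30 in female 4, beside 15.7 to 21. Among males, RGP1 was 28.3 in male 3, beside 25.3 to 26.3, DDIT4 was 23.6 in male 1, beside 6.76 to 11.6, RPL37 was 28.7 in male 5, beside 43.8 to 49.0, TOMM34 was 4.51 in male 3, beside 6.16 to 6.61, and RPS6 was 570 in male 5, beside 689 to 759. SMARCA2 was 356 in male 6, beside 411 to 423, CHD1 was 153 in male 9, beside 139 to 144, NR2F1 was 62 in male 6, beside 38.3 to 42, and VIPR1 was 23.5 in male 7, beside 11.3 to 15.2.

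The sex difference of 11 genes with a symbol differed from that of the other 9 species by edgeR's test of the difference itself. The shifts towards females were -2.64 for PTCH1, -1.89 for RPL37, -2.60 for LRRC39, -0.823 for TOMM34, -0.914 for SELENOP, -0.826 for CAPN7, -0.695 for PRKAA1 and -1.24 for TRPM8. The shifts towards males were 0.822 for DPH5, 1.37 for PRPF31 and 0.971 for ATCAY.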

How the results depend on the processing

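No named gene called in either fit changed sign under any alternative. Of the 96 named genes called, 35 were called under every alternative and 68 with each of the 12 birds left out. Scaling by library size or DESeq2 size factors and leaving out mitochondrially encoded genes moved no count within House Wrens by over 1.5 times. Without a filter, or with at least 1 CPM in 6 birds, 2 Z genes were female-higher. Leaving out 1 bird gave 352 to 921 calls, 289 to 710 male-higher and 61 to 211 female-higher, 2 to 4 female-higher Z genes, 128 to 516 male-higher and 59 to 207 female-higher genes outside the Z list, and 60 to 442 unshared male-higher genes; 921, 710, 211 and 442 came without female 7, 352 without male 3, 61 without male 5 and 60 without female 5, and without female 1 there were 342 male-higher genes outside the Z list and 271 unshared ones. Male-higher Z genes numbered 161 to 194, the Z median was 0.50 to 0.55, that of Z genes with a W copy 0.37 to 0.49 and that of other genes -0.028 to -0.015.

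DESeq2's Wald test gave 898 calls, 582 male-higher and 316 female-higher, with 367 and 311 outside the Z list and 289 unshared. With limma voom 182 were unshared. With 1 surrogate variable 2 Z genes were female-higher, the median of Z genes with a W copy was 0.28 and that of other genes -0.0088. With all birds of the series in the fit there were 259 calls, 198 and 61 by direction, 2 female-higher Z genes, 67 and 59 outside the Z list, 17 unshared, and a median of other genes of -0.061. Without females 2, 4 and 5 there were 275 calls, 235 and 40 by direction, 2 female-higher Z genes, 82 and 38 outside the Z list and 18 unshared, with a W-copy median of 0.29. Without females 2 and 4 there were 71 female-higher genes, 2 of them Z genes, 126 and 69 outside the Z list and 52 unshared, with medians of 0.30 (W copy) and -0.0099 (other genes). The cause was not tested.

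Bird numbers 1, 3, 5 and 7 occur in both sexes and their deviations correlated at -0.0834 to 0.213. These values cannot show whether equal numbers mark linked birds, and the labels do not say so. Females 2 and 4 and males 6 and 9 have no bird of the same number in the other sex. In a fit with the bird number as a block they add nothing to the sex difference. With the replicate block there were 220 calls, 189 and 31 by direction, 2 female-higher Z genes, 61 and 29 outside the Z list and 19 unshared, with medians of 0.33 (W copy) and -0.0082 (other genes).

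Against the other species, PTCH1 and RPL37 were called under all 7 alternatives. Library size gave 7 genes shifted towards females. Leaving out 6 libraries of other species that stand apart or go against their label (Carolina Wren female 1 and male 3, Eastern Bluebird male 12, Barn Swallow females 3 and 4, House Sparrow female 3) gave 24 calls, 9 towards males and 15 towards females, and the 1 CPM filter gave 8 towards males. With the Carolina Wren alone there were 8 calls, 1 towards males and 7 towards females, and without its female 1 and male 3 there were 9 towards males. Limma voom gave 10 calls, 2 towards males, and leaving out House Wren females 2, 4 and 5 gave 3 towards males. Low counts limit LRRC39, GALT and HEMGN.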
